A study of Oryza sativa with 18 samples.

Results

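Dense clusters of open chromatin were examined on chromosomes 1 to 12 of rice. The deposited list holds 29978 open regions, of which 29831 lie on these chromosomes. Regions sorted by start were joined into a run whenever fewer than 1000 bp separated one from the next, and the members are all regions in runs of 5 or more. There were 1748 such regions, 5.86% of those on the chromosomes, in 297 dense runs. They were set beside the 16295 regions with no neighbour closer than 1000 bp, called single regions here. The members were chosen by the gaps between listed regions, so their number, their gaps and their local density are descriptions and were not tested.

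The list comes from ATAC-seq, in which a transposase cuts DNA that nucleosomes leave free, and was made from the 2nd leaf of 14-day-old plants of the variety Azucena in hydroponic culture. Heat-treated plants were moved to 40 °C and sampled at 0.5 h, 2 h and 4 h. Heat recovery plants spent 2 h at 40 °C and 2 h back at 30 °C, dehydrated plants had their roots in air for 2 h, and dehydration recovery plants spent 1.5 h in air and 2 h in liquid again. Controls stayed at 30 °C and were sampled at 0.5 h, 2 h and 4 h. Each of these 9 groups has 2 libraries, 18 in all, but the list carries no value per library, so no treatment can be compared with another and the depth is unknown. All members could therefore be described only across the pooled list, where chromosomes, not plants, give the spread.

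In plants, as in animals, accessible DNA marks promoters, enhancers and other sites where regulatory proteins displace nucleosomes. DNA wrapped in a nucleosome is cut far less often, so open sites on either side of it appear as separate short regions with a gap between them. Regulatory DNA can hold several such sites within a few kb. Which genes lie in the dense runs was not analysed here.

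Most dense runs were small. Of the 297 runs, 176 held exactly 5 regions, 111 held 6 to 9 and 10 held 10 or more. A run spanned a median of 3231 bp, with quartiles of 2519 and 4358 bp and extremes of 1141 and 10027 bp. Within that span a median of 51.2% of the bases was open, with quartiles of 41.8% and 60.6%. All runs together covered 1049 kb, or 0.281% of the chromosomal sequence as far as its last listed region, and held 6.96% of all open bases. The open share over all runs was 52.0%, against 2.10% over the chromosomes, a contrast that the joining rule creates.

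The run with most regions lay on chromosome 4 (chr4:20493639-20500105) and held 13 regions. Its regions were 72 to 686 bp wide, and 5 of them were under 150 bp. Their peak values ran from 11 to 18, with 3 regions at 18. The peak value is a whole number from 10 to 18 given for each region without a definition, and its upper limit equals the number of libraries. Neither the list nor the labels say what it counts. Runs of 12 lay on chromosome 2 (chr2:19594380-19601137), as well as on chromosome 1 (chr1:11606656-11614148). The chromosome 2 run held 2 regions wider than 1000 bp, of 1166 and 1103 bp, and 7 regions under 150 bp. A pair of runs of 11 on chromosome 6 (chr6:20867268-20873572 and chr6:22655952-22663494) followed, with open shares of 35.4% and 52.1%.

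The longest run was not the one with most regions. It spanned 10027 bp on chromosome 1 (chr1:25695623-25705649), with 8 regions, and its last region alone was 4138 bp wide, the widest of all members. That region made up 55.1% of the open bases of its run. The next longest were runs of 11 regions on chromosome 8 (chr8:26769239-26778032, 8794 bp) and on chromosome 5 (chr5:1170754-1179043, 8290 bp). The shortest packed 5 regions into 1141 bp of chromosome 3 (chr3:1847519-1848659), with gaps of 74 to 115 bp. The other short runs spanned 1530 bp on chromosome 6 (chr6:20056090-20057619) and 1618 bp on chromosome 5 (chr5:18496315-18497932).

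Some runs were nearly continuous, and others were scattered narrow sites. On chromosome 8 (chr8:21169496-21174052), 92.5% of the run was open, in regions of 733, 1992, 1261, 159 and 72 bp separated by only 72 to 109 bp. The open share was 86.5% in a run on chromosome 1 (chr1:17347934-17351664) and 83.6% in another (chr1:27323445-27328086). In a run of 9 regions on chromosome 4 (chr4:16076204-16080341) every region was under 150 bp and 20.5% of the span was open, near the lowest share of any run, 19.2%. Its peak values lay between 11 and 14.

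**Figure D1:**
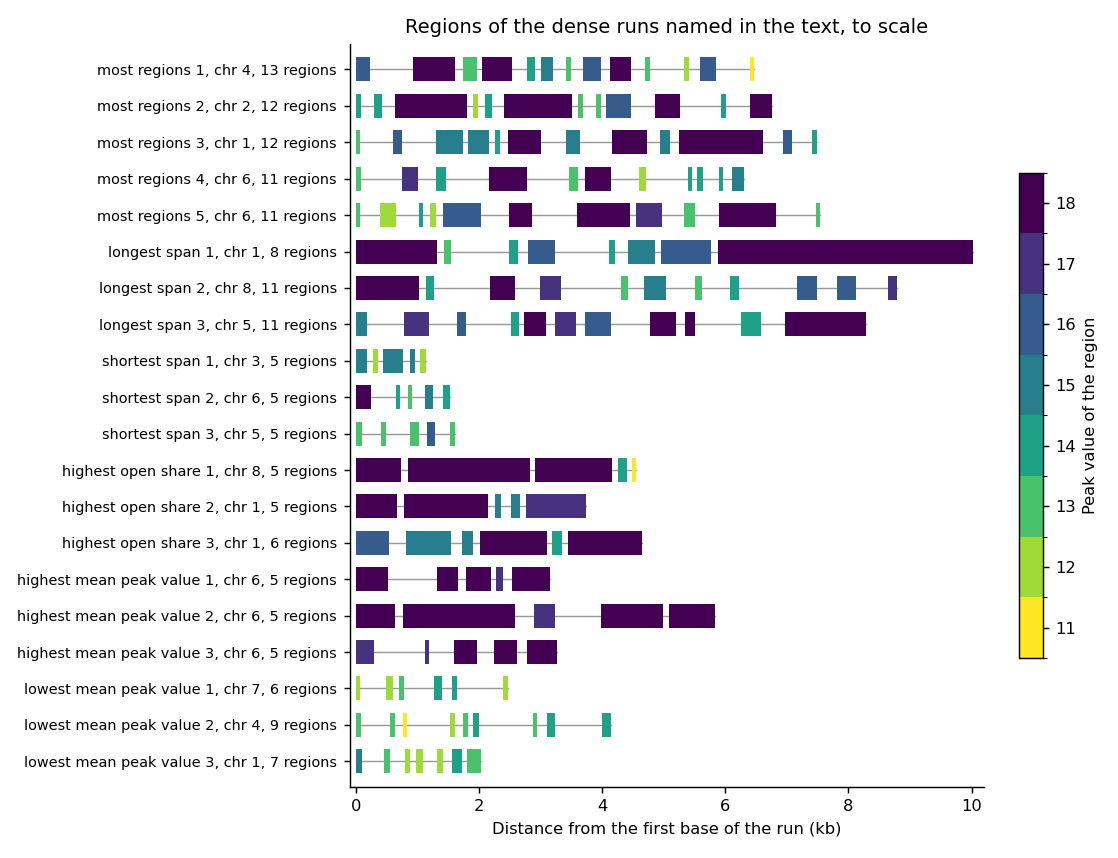
Dense runs named in the text, each drawn to scale from its first base (horizontal axis in kb); boxes are open regions, coloured by peak value, and the row label gives the rule that picked the run, its rank, chromosome and number of regions. Regions wider than 1000 bp at peak value 18 stand beside regions under 150 bp in some rows. The 3 runs with the lowest mean peak value hold no region at 18, and neither do the runs ranked 1 and 3 by shortest span.

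Runs also differed in their mean peak value. The highest means were 17.8 in 2 runs of chromosome 6 (chr6:26383076-26386235 and chr6:23364234-23370067), and 17.6 in another run of the same chromosome (chr6:23584002-23587267) and in a run on chromosome 3 (chr3:29573964-29579454). The lowest were 12.8 on chromosome 7 (chr7:27195078-27197544) and 13 in the chromosome 4 run of 9 regions and in a run of 7 on chromosome 1 (chr1:14451662-14453687). The median over the 297 runs was 15.4, with quartiles of 14.7 and 16. At least 1 region at 18 was present in 226 runs (76.1%), 134 runs had 2 or more, and 0 runs had all regions at 18. Of all chromosomal regions 22.3% were at 18, and a dense run held 5.89 regions on average. Whether the counts of runs differ from what that share alone would give was not tested.

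Members of a run varied in peak value and width. The peak value spanned a median of 5 units within a run, and its SD over all chromosomal regions was 2.06. Whether members of a run differ more or less than unrelated regions was not tested. Across 1451 neighbouring pairs inside runs, Spearman's rho was 0.047 for peak value and 0.015 for width, given here as a description of pairs that share runs. The widest region of a run had a median of 606 bp and the narrowest a median of 77 bp. The latter lies near the floor of the list, where no chromosomal region or gap is under 72 bp. Exactly 72 bp was the width of 128 members (7.32%). The widest held a median of 37.9% of the open bases. Regions next to the widest one had a median width of 148 bp (n = 464), against 167 bp for those farther away (n = 987). The gaps beside the widest region had a median of 271 bp, against 260 bp for the other gaps of the runs. These medians differ by far less than the quartiles within each set, which for the neighbours of the widest region were 85 and 298 bp.

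Gaps inside runs were short. Their median was 265 bp (n = 1451), with quartiles of 140 and 510 bp, while the gaps that join runs of 2 to 4 regions had a median of 307 bp (n = 6788). Of the gaps inside dense runs, 27.6% were under 150 bp and 27.8% lay from 150 to under 300 bp, against 23.8% and 25.4% in runs of 2 to 4. From 750 to under 1000 bp there were 9.72%, against 13.02%. Counted from peak position to peak position, neighbouring members lay a median of 586 bp apart, with quartiles of 378.5 and 853 bp, and no 100-bp class held more than 13.4% of the distances (from 300 to under 400 bp).

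The threshold cut through a smooth distribution. Runs of exactly 5 had a median span of 2764 bp, a median open share of 51.3% and a median region width of 211 bp. The 364 runs of 4, just outside, had 2094 bp, 49.4% and 194 bp. Over the whole list, 191 gaps measured 950 to under 1000 bp and 189 measured 1000 to under 1050 bp.

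Members had nearly the same median width as single regions but a much broader spread of widths. The median was 207 bp in dense runs and 209 bp in single regions. Over the chromosomes the medians were 207 bp ± 27.6 in dense runs and 209 bp ± 6.52 in single regions (SD, n = 12 chromosomes), higher in dense runs on 5 of 12. The lower quartile was 96 bp in dense runs, against 122 bp in single regions, and the upper quartile was 411.5 bp, against 328 bp. The 95th percentile was 911 bp in dense runs, against 609 bp. Because widths and gaps come from the same coordinates, these differences are descriptions and were not tested.

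Both tails of the width distribution were fuller in dense runs than in single regions, and the middle was emptier. The narrow tail was nearly as full in runs of 2 to 4. Pooled over the chromosomes, regions under 150 bp made up 39.5% of members, 38.8% in runs of 2 to 4 and 32.6% of single regions. Regions under 100 bp made up 27.4% ± 3.19 of the members and 18.99% ± 0.920 of the single regions (SD, n = 12 chromosomes), more in dense runs on 12 of 12. Regions of 200 to under 300 bp made up 14.2% ± 2.98 of the members and 23.7% ± 1.71 of the single regions, fewer in dense runs on 12 of 12. Regions of 500 to under 1000 bp made up 13.6% ± 4.66 and 8.35% ± 1.02, more in dense runs on 10 of 12.

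Of the 7 width classes compared, the widest had the largest ratio between the sets. Regions wider than 1000 bp numbered 72 of 1748 members (4.12%, 95% Wilson interval 3.28 to 5.16%) and 109 of 16295 single regions (0.669%, 0.555 to 0.806%), a ratio of 6.16. These intervals cover counting error only and treat regions as independent, which neighbours are not. The share was higher in dense runs on 11 of 12 chromosomes, and on chromosome 10 it was 0 in dense runs. Members were 5.86% of all chromosomal regions but 21.0% of the 343 wide ones, and 3 of the 5 and also 3 of the 10 widest chromosomal regions belonged to dense runs. By run size the share was 0.669% in single regions, 1.08% in runs of 2, 1.60% in runs of 3, 2.34% in runs of 4 and 3.18% in runs of 5. It was 6.14% in runs of 6 and 4.37% in runs of 7 or more. Wide regions sat in 55 of the 297 dense runs, and 47 of these 55 also held a region under 150 bp, as did 274 of all 297 dense runs (92.3%).

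**Figure D2:**
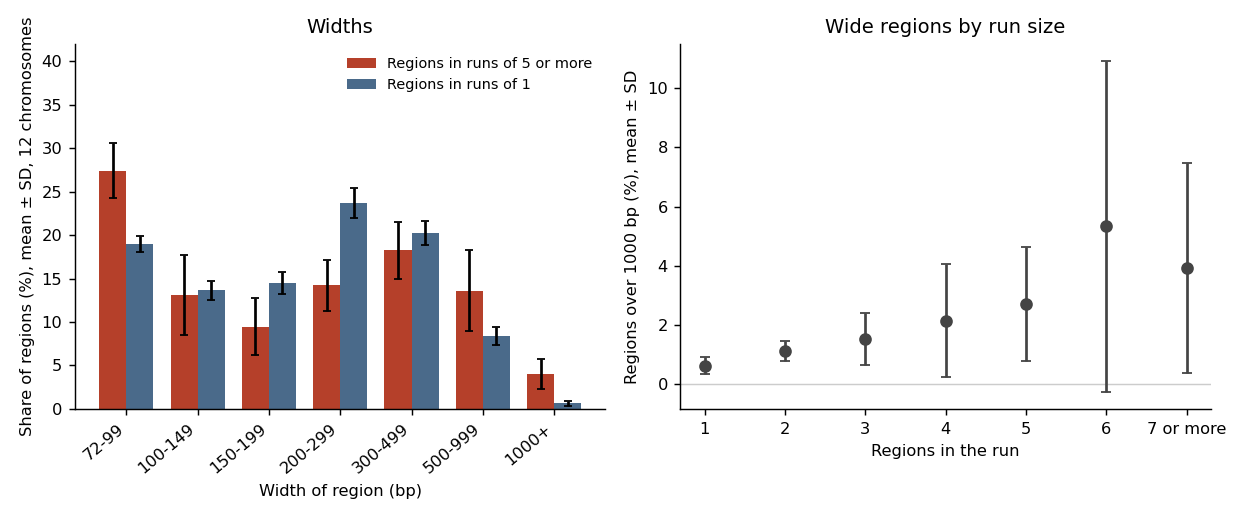
Left, share of regions (%) in each width class for runs of 5 or more and for runs of 1, as mean and SD over 12 chromosomes; right, share of regions wider than 1000 bp (%) by the number of regions in the run, as mean and SD over the chromosomes that have such runs. Dense runs hold more regions under 100 bp (27.4% against 18.99%) and more of 500 bp and above, and fewer of 200 to under 300 bp (14.2% against 23.7%).

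The peak value was not used to choose the members and could be tested. Its mean was 15.37 ± 0.209 in dense runs and 15.35 ± 0.104 in single regions (SD, n = 12 chromosomes), a difference of 0.029 ± 0.221 that did not pass the test (exact sign-flip permutation test over chromosomes, two-sided p = 0.655, adjusted p = 0.655 over the 4 tests of peak value). The difference ran from -0.251 on chromosome 7 to 0.409 on chromosome 10 and was positive on 5 of 12. It passed in one altered list, that of regions of at least 100 bp joined anew, where it was 0.25 (exact sign-flip, adjusted p = 0.00195). That list was picked by width. With its regions compared inside width classes, the difference was -0.014 ± 0.383 and did not pass (exact sign-flip, adjusted p = 0.951).

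The highest peak value, 18, had a larger share in dense runs than in single regions, by a difference whose pass depended on the adjustment. It was held by 426 of 1748 members (24.4%, Wilson interval 22.4 to 26.4%) and by 3516 of 16295 single regions (21.6%, 21.0 to 22.2%). Here too the intervals cover counting error only and treat regions as independent, which neighbours are not. Over the chromosomes the shares were 25.4% ± 4.29 and 21.9% ± 2.01, a difference of 3.44 percentage points ± 4.08 (SD, n = 12), higher in dense runs on 9 of 12 (exact sign-flip permutation test, two-sided p = 0.0181). It did not pass when adjusted over the 4 tests of peak value (exact sign-flip, adjusted p = 0.0723) and passed when a test of widths by place in the run, not used here, was counted as well (adjusted p = 0.0452). The largest difference was on chromosome 11, at 34.5% of 58 members and 23.0% of single regions. On chromosomes 3, 5 and 12 the share was lower in dense runs, at 18.8%, 21.6% and 25.3%, against 20.1%, 23.1% and 26.1%. In runs of 2 to 4, 2703 of 11788 regions (22.9%) were at 18. Against those runs the difference was 1.90 points ± 3.11 and did not pass (exact sign-flip, n = 12 chromosomes, adjusted p = 0.232).

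At matched width the difference from single regions in the share at 18 was smaller and had the opposite sign. Wide regions have high peak values in both sets, with a Spearman rho of 0.80 across members and 0.80 across single regions. With regions compared inside width classes, the difference in the share at 18 (dense runs minus single regions) was -1.25 percentage points ± 4.92 (exact sign-flip, n = 12 chromosomes, adjusted p = 0.616), and with regions over 1000 bp left out of both sets the difference was 1.09 points (exact sign-flip, adjusted p = 0.616). Both alternatives were chosen after the values were seen. The mean peak value at matched width, tested as one of the 4, differed by 0.086 ± 0.307 between dense runs (15.37) and single regions (15.29), with no pass (exact sign-flip, n = 12 chromosomes, p = 0.462, adjusted p = 0.616).

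Inside the width classes the differences had opposite signs for narrow and wide regions. Among regions under 100 bp the mean peak value was 13.3 ± 0.430 in dense runs and 12.9 ± 0.046 in single regions, higher in dense runs on 10 of 12 chromosomes. From 100 to under 150 bp it was 14.3 ± 0.590 and 13.9 ± 0.173, higher on 9 of 12. From 300 to under 500 bp it was 16.9 ± 0.265 in dense runs and 17.1 ± 0.137 in single regions, lower in dense runs on 10 of 12. The pattern was noticed in these values and was not tested. Within classes the median widths were close, at 79 and 78 bp for the narrowest class and 384 and 373 bp for 300 to under 500 bp.

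**Figure D3:**
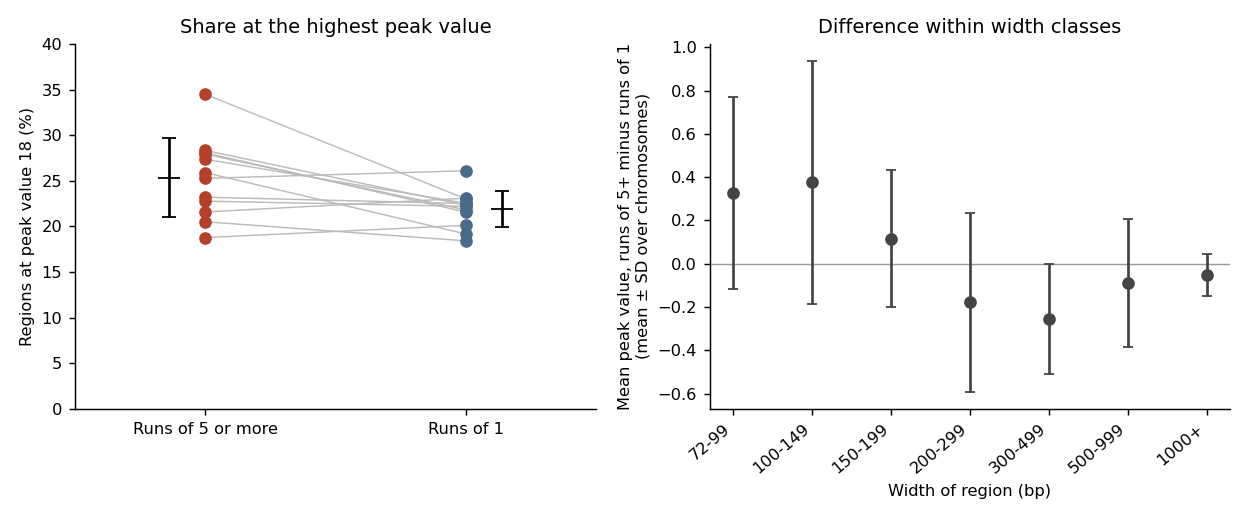
Left, share of regions at peak value 18 (%) on each of the 12 chromosomes in runs of 5 or more and in runs of 1, joined by lines, with mean and SD beside the points; right, mean peak value in runs of 5 or more minus that in runs of 1 within width classes, as mean and SD over the chromosomes. The share is higher in dense runs on 9 of 12 chromosomes, and the difference within classes is above 0 for the 3 narrowest classes and below 0 for the 4 widest.

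Chromosome 10 held a pair of runs with narrow regions at the highest peak value. A run of 9 regions (chr10:10873158-10876121) had 7 regions at 18, the most of any run, although its widest region was only 398 bp. In order, its regions were 81, 112, 165, 119, 85, 122, 147, 398 and 102 bp wide, with peak values of 16, 18, 18, 18, 16, 18, 18, 18 and 18. A run of 7 lay 41378 bp further on (chr10:10917500-10920931), with peak values of 16 to 18 in regions of 72 to 832 bp. Of the 14 members under 150 bp that reached 18, these runs held 6. On the other 11 chromosomes 8 of 658 members under 150 bp (1.22%) were at 18. Of the single regions under 150 bp on all 12 chromosomes, 47 of 5320 (0.883%) were at 18. Without this pair of runs, left out after their values were seen, the difference in the share at 18 on chromosome 10 was -6.42 points, against 6.01 points with them. The mean difference over the 12 chromosomes was then 2.41 points (exact sign-flip, adjusted p = 0.310). These runs were picked by their regions at 18, so omitting them lowers the difference by construction and the test decides nothing.

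Interior regions of a run had a lower median width than the regions at its ends. The median was 190.5 bp for the 1154 interior regions, against 231 bp for the 594 end regions. On the log2 scale, means per run averaged 7.67 ± 0.20 for interior regions and 7.85 ± 0.16 for end regions (SD, n = 12 chromosomes). The difference of -0.18 ± 0.19 was below 0 on 10 of 12 chromosomes, with chromosomes 8 and 9 as the exceptions. Places in a run are set by the same coordinates as the widths, so this too is a description. In runs of exactly 5 the difference was -0.17 ± 0.42, and after merging regions less than 150 bp apart it was -0.04 ± 0.35. Regions under 150 bp made up 42.5% of interior and 33.8% of end regions, and regions over 1000 bp 4.07% and 4.21%. The first regions of the runs had a median of 238 bp and the last ones of 229 bp. The widest region was an end region in 130 of 297 runs (43.8%), against 35.5% if each place were equally likely.

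The mean peak value, which the rule did not use, was 15.34 ± 0.262 for interior and 15.46 ± 0.231 for end regions. The difference of -0.124 ± 0.283 did not pass (exact sign-flip, n = 12 chromosomes, p = 0.155, adjusted p = 0.310).

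**Figure D4:**
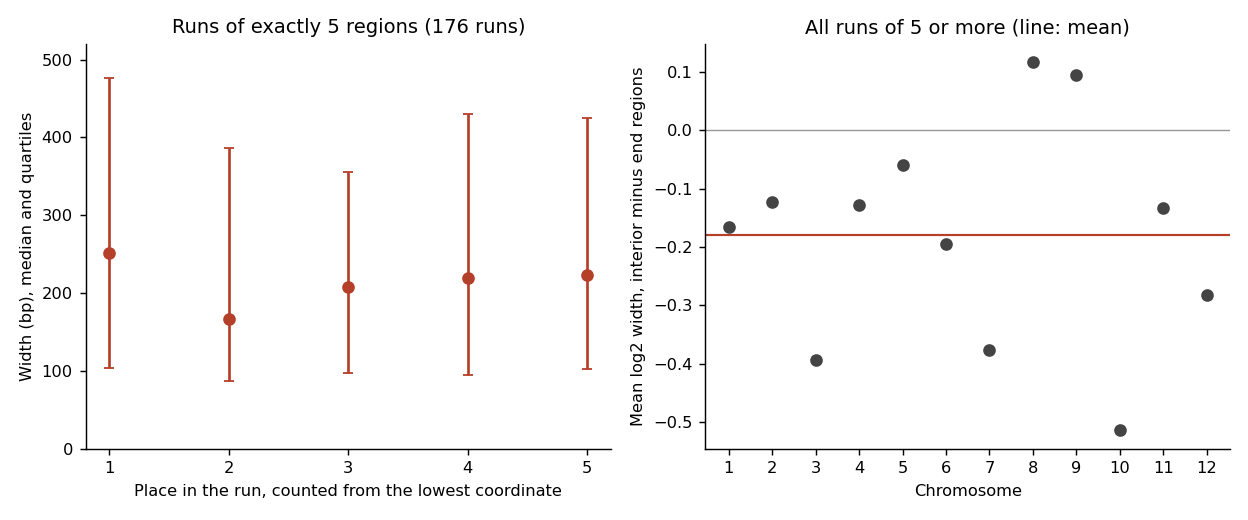
Left, width in bp (median and quartiles) by place in the run for the 176 runs of exactly 5; right, mean log2 width of interior minus end regions on each chromosome for all runs of 5 or more, with the mean as a line. The lowest median, 167 bp, is at the 2nd place and the highest, 251.5 bp, at the first, with quartiles that overlap at all 5 places, and 10 of 12 chromosomes lie below 0.

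Dense runs were unevenly shared among chromosomes. Chromosome 5 had the most per Mb, 1.27, with 38 runs, and 8.28% of its regions were members. Chromosome 11 had the fewest, 0.311 per Mb, with 9 runs and 3.73% of its regions. Chromosome 1 held the largest number, 49. The mean was 0.773 runs per Mb ± 0.313 and 5.67% ± 1.53 of the regions (SD, n = 12 chromosomes). Chromosomes with more regions per Mb had more runs per Mb, which the joining rule brings about, but order differed in places. Chromosome 3 had the most regions per Mb, 100.96, and 1.07 runs per Mb, and chromosome 2 had 94.8 regions and 0.807 runs per Mb.

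Along the chromosomes the runs followed the open regions with a few departures. Together, the first 25% and the last 25% of the length held 52.6% of the members, against 56.9% of the single regions. Over the chromosomes the shares were 52.2% ± 9.42 and 57.1% ± 5.02 (SD, n = 12). The stretch from 50 to 60% of the length held 12.0% of the members and 8.93% of the single regions. The stretches before it, from 30 to 40% and from 40 to 50%, were the poorest for both, at 6.86% and 6.58% of the members and 7.14% and 7.15% of the single regions. Local density enters the rule, so position was not tested.

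Of 366 full bins of 1 Mb, 186 (50.8%) held no dense run, 109 held 1 and 71 held 2 or more. The shorter stretch at the end of each chromosome was left out, with any dense run in it. The 92 bins with most open regions, from 105 to 166 each, held 1.59 runs per bin and 7.72% of their regions were members. The 92 bins with fewest, from 4 to 54 each, held 0.228 runs per bin and 3.27%. Most runs in a bin were the 6 between 26000001 and 27000000 on chromosome 6, a bin with 154 regions of which 30 were members. Bins with 5 runs lay on chromosome 5 (chr5:1000001-2000000 and chr5:18000001-19000000) and on chromosome 1 (chr1:14000001-15000000).

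**Figure D5:**
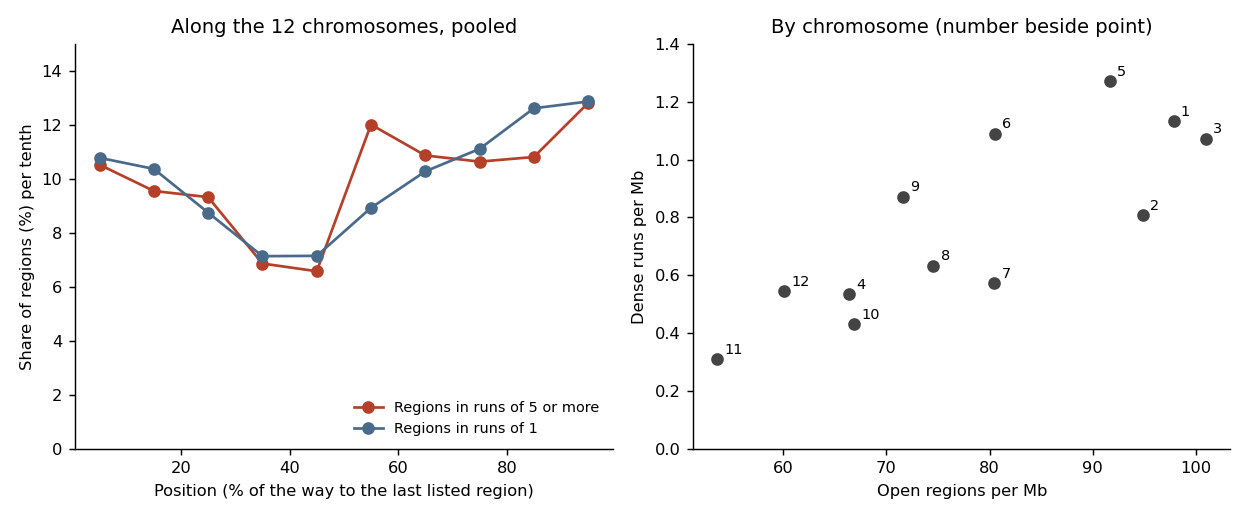
Left, share of regions (%) in 10 equal stretches of the length as far as the last listed region, pooled over 12 chromosomes, for runs of 5 or more and runs of 1; right, dense runs per Mb against open regions per Mb, with the chromosome number beside each point. Members and single regions share the low between 30 and 50%, and chromosome 5 has the most runs per Mb (1.27) and chromosome 11 the fewest (0.311).

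The surroundings of dense runs listed somewhat more open regions than those of single regions, a description since local density enters the rule. Within 50 kb on either side a median of 11 further regions was listed (quartiles 8 and 16, n = 296 runs), against 9 around a single region (quartiles 6 and 13, n = 16244). With both sides counted, the next region outside a run lay a median of 4684 bp from its edge (n = 593 distances). Beside single regions the median was 8918 bp (n = 32569). Of the distances from dense runs, 21.6% were under 2000 bp, against 12.95% of all gaps of at least 1000 bp on the chromosomes. Dense runs themselves were mostly far apart, with a median of 359 kb to the nearest other one. Another run lay within 10 kb for 18 of the 297, and within 2 kb for 4. The closest pair was on chromosome 5, where the run of 11 that ends at 1179043 was followed after 1013 bp by a run of 6 (chr5:1180057-1183641).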

How the data were processed

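The authors' deposited list gives for each open region a sequence name, start, end and an attribute string with a score called max (here peak value) and its position. The aligner was Bowtie2 2.2.3, per the submitters' processing notes. No source used here states the genome build, the filters, the region caller or how the 18 libraries were pooled. The deposited starts and ends were used as written, 1-based. The list holds 0 columns of per-sample values.

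Runs, widths and gaps were computed in Python 3.11.15 with pandas 2.3.3, NumPy 2.4.6 and SciPy 1.17.1. A gap is the next start minus the previous end minus 1. Peak values were compared in 4 ways, tested with a two-sided exact sign-flip permutation test over 12 chromosomes (4096 sign patterns, smallest p 0.000488), with Benjamini-Hochberg adjustment over the 4 tests and a threshold of 0.05. Chromosomes are parts of 1 list, not plants, so p-values say nothing of the spread between plants. A planned 5th test, of widths by place in the run, is given as a description, because the rule and the widths share coordinates, a choice made after the values were seen. Width classes had edges at 100, 150, 200, 300, 500 and 1000 bp. Runs were named by most regions, longest and shortest span, highest open share, highest and lowest mean peak value and widest member. The members, lists and tests were chosen with earlier results of these data known. The gene table at hand is for an assembly that no source names for this list, so no gene and no sequence is given.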

Additional observations from a re-analysis of the deposited data

Results flagged for a closer look

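Regions outside chromosomes 1 to 12 take no part in the comparisons above, and the same joining rule found dense runs on ChrC and ChrM, by their names the chloroplast and mitochondrial genomes. On ChrC, 17 of 41 regions lay in 3 runs of 5 or more, and on ChrM 17 of 73 regions in 3 runs. Local density enters the rule, so these counts are descriptions and were not tested. The ChrC run from 11674 to 18565 held 6 regions, all at peak value 18, over 85.5% of its span. The ChrM run from 284707 to 339007 held 7 regions over 96.7% of 54301 bp. ChrSy and ChrUn held 0 such runs.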

How the results depend on the processing

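No paired analysis was possible because the list carries no value per library. The number of members was 1748 and became 618 with a gap limit of 500 bp, 3875 with 2000 bp, 3204 for runs of 4 or more, 868 for runs of 6 or more, 640 for regions of at least 100 bp and 797 after merging regions less than 150 bp apart, all from the construction of those lists. The number of runs was 110, 620, 661, 121, 112 and 140 in the same order, against 297. The median width of members became 304.5 bp for regions of at least 100 bp, 242 bp after merging and 237.5 bp for peak values of at least 13, where short regions were left out or joined. The outer share kept within the spread over chromosomes in the 7 alternatives run.

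The difference in the share at 18 (3.44 points) passed with the planned adjustment over 5 tests and not over the 4 of peak value (3.44 in both). With the planned one it lost its pass with a gap limit of 500 bp (4.87), in runs of 4 or more (2.53) and of 6 or more (2.08), after merging (5.99), against runs of 2 to 4 (1.90), for regions of at most 1000 bp (1.09), with chromosomes weighted by members (2.86) and without 2 runs of chromosome 10 (2.41), and turned to -1.25 in matched width classes. Under both adjustments the difference passed with a gap limit of 2000 bp, at 3.22 points (exact sign-flip, adjusted p = 0.0117 over 4). It also passed under both once regions narrower than 100 bp were dropped, at 6.36 points (exact sign-flip, adjusted p = 0.0322 over 4). Dropping peak values below 13 gave 4.4 points and a pass under both (exact sign-flip, adjusted p = 0.0137 over 4). That list was picked by the tested peak value itself, so its pass decides nothing. Without single chromosomes the difference ran from 2.71 to 3.89. It then passed in 3 of 12 with the adjustment over 5 and in 0 of 12 over 4 (exact sign-flip, adjusted p of 0.0508 to 0.145). The difference in log2 width between interior and end regions kept its sign, at -0.23 with a gap limit of 500 bp, and in runs of 6 or more (-0.15), after merging (-0.044) and in runs of exactly 5 (-0.17), and ran from -0.21 to -0.15 without single chromosomes. The cause was not tested.

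The difference in mean peak value changed sign in runs of 6 or more (-0.054), with medians (-0.125) and without 2 runs of chromosome 10 (-0.023), passed for regions of at least 100 bp (0.25), and ran from -0.0056 to 0.0545 without single chromosomes. At matched width it changed sign for regions of at least 100 bp (-0.014), against runs of 2 to 4 (-0.050) and with medians (-0.0086), and ran from 0.0034 to 0.116 without single chromosomes. The peak value of interior minus end regions ran from -0.162 to -0.074 and passed in 0 of 12. Depth is unknown, so which regions were missed cannot be said.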

Other observations

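Peak positions were spaced most evenly in a run of 5 regions on chromosome 1, from 19917465 to 19919864, where neighbouring peaks lay 537 bp apart on average with a coefficient of variation of 0.0899. A run of 6 on chromosome 9, from 20889614 to 20894915, followed, at 983 bp and 0.105. The median coefficient over the 297 runs was 0.474, with quartiles of 0.372 and 0.594. These runs were picked after their values were seen. The recorded peak lay on the lower-coordinate side in 74.9% of members and 74.0% of single regions. How the list reports a tied peak is not stated.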
